A study of Homo sapiens with 9 samples.

Results

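The genes described here were the zinc finger genes of human chromosome 19 and TRIM28, a gene near the end of the same chromosome whose protein many zinc finger proteins recruit. They were chosen as every gene listed on chromosome 19 with a symbol of ZNF, digits and at most 1 closing letter, without pseudogenes, whose counts summed to at least 90 over all libraries. That rule gave 211 ZNF genes, which with TRIM28 made 212 of the 60612 genes listed. The levels over all libraries therefore chose the members. Differences between groups were not used as such, but a gene near the minimum could pass through the group where it was high. The 3 ZNF genes just under the minimum were ZNF878 with 68 counts, ZNF763 with 73 and ZNF20 with 73, and the 3 just above it were ZNF404 with 99, ZNF610 with 102 and ZNF56 with 117. Chromosome 19 held 248 ZNF genes at any count, of which 37 fell under the minimum and 19 of these had no count at all. Every one of the 212 members passed the filter on low counts of the fit.

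Zinc finger proteins of the Krüppel-associated box (KRAB) kind bind DNA through a row of zinc fingers and recruit TRIM28, also called KAP1, through the KRAB domain. TRIM28 in turn brings the histone H3 lysine 9 methyltransferase SETDB1, heterochromatin protein 1 and the NuRD complex, and many of the sequences silenced this way are transposable elements. Most of these genes arose by tandem duplication and lie in clusters on chromosome 19. Of the 211 ZNF genes, 193 carried the deposited annotation of the KRAB zinc finger ortholog group and 18 did not. That annotation was taken as deposited, and it includes ZNF146, whose protein has no KRAB domain.

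All libraries came from MDA-MB-231 cells, a mesenchymal line of human triple-negative breast cancer, harvested 48 hours after transfection with a lipid reagent. The groups were MILIP siRNA1, MILIP siRNA2 and a control siRNA, with 3 libraries each. MILIP is a long noncoding RNA, listed in the table as MAFG-DT, and the transfection text in the labels names PLANE as the siRNA target where the titles and treatment labels name MILIP. The labels do not state whether separate cultures were sequenced, and p-values therefore measure no more than the library-to-library spread, which could be technical. The study used a single cell line, transiently transfected.

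Library totals ran between 15281220 and 19759371 counts, so that 3 counts were worth 0.152 to 0.198 CPM in a library (CPM, TMM-scaled counts per 1000000 library counts). MILIP averaged 1.24 ± 0.641 CPM in MILIP siRNA1 libraries and 0.616 ± 0.316 CPM in MILIP siRNA2 libraries, against 8.41 ± 0.254 CPM in control libraries (SD, n = 3 each). Of the 4 markers of the line, VIM, CD44 and MSN were abundant, averaging 4780, 830.3 and 872.9 CPM in control libraries. ZEB1 averaged 81.05 CPM in control libraries, 44.29 CPM with MILIP siRNA1 and 61.55 CPM with MILIP siRNA2. At an edgeR adjusted p below 0.05, 0 of the 4 were higher and 3 lower with MILIP siRNA1. With MILIP siRNA2 1 was higher and 2 were lower. Of all genes tested 25.1% were higher and 25.3% lower with MILIP siRNA1, and 27.2% and 28.9% with MILIP siRNA2. Of the leukocyte markers PTPRC reached at most 0.0562 CPM in any library and CD3E had no count. Of 5 markers listed as low in this line, ESR1 reached at most 0.955 CPM and PGR 0.0582 CPM, while ERBB2 was at 50.1 to 76.1 CPM and EPCAM at 3.198 to 6.97 CPM over all libraries. CDH1 averaged 1.803 ± 0.565 CPM in MILIP siRNA1 libraries and 1.105 ± 0.253 CPM in MILIP siRNA2 libraries, against 0.602 ± 0.136 CPM in control libraries (SD, n = 3 each), and rose with MILIP siRNA1 at 1.57 (SE 0.364, edgeR adjusted p = 0.000843). The 4 fibroblast markers COL1A1, COL1A2, PDGFRB and DCN summed to 48.7 to 57.6 CPM in MILIP siRNA1 libraries and 68.5 to 72.0 CPM in MILIP siRNA2 libraries, against 8.09 to 11.3 CPM in control libraries, where COL1A2 and DCN had no count. With MILIP siRNA1 2 of the 3 tested fibroblast markers were higher, and with MILIP siRNA2 all 3 were. The endothelial markers PECAM1 and CDH5 summed to 3.26 to 4.69 CPM in MILIP siRNA1 libraries and 8.07 to 9.09 CPM in MILIP siRNA2 libraries, against 4.47 to 7.04 CPM in control libraries. The part of these markers in the results below was not tested. In bulk RNA, fewer cells of a type and less RNA per cell cannot be told apart.

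The 211 ZNF genes were mostly low. Their control level per exon length ran between 0.06 and 17.2 FPKM with a median of 1.07, against a median of 3.83 FPKM over the 15345 genes tested. ZNF146, whose protein is made of zinc fingers, led with 17.2 FPKM in control libraries, followed by ZNF787 at 14.1, ZNF428 at 10.7, ZNF581 at 8.19 and ZNF317 at 8.14 FPKM. TRIM28 stood far above all of them at 141 FPKM. By gaps of more than 1 Mb between the starts of neighbouring ZNF genes the chromosome split into 16 clusters, numbered from the short-arm end. Of these, 8 held at least 5 members.

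TRIM28, the shared corepressor, was lower with MILIP siRNA2 and passed no test with MILIP siRNA1. It had 622, 526 and 612 CPM in MILIP siRNA1 libraries and 429, 417 and 398 CPM in MILIP siRNA2 libraries, against 564, 629 and 644 CPM in control libraries. All 3 MILIP siRNA2 libraries lay under every other library, while the MILIP siRNA1 and control libraries overlapped. Its log2 fold change was -0.56 (SE 0.0644, edgeR adjusted p = 5.68e-08) for MILIP siRNA2 against control and -0.06 (SE 0.06404, edgeR adjusted p = 0.448) for MILIP siRNA1 against control, both comparisons resting on the same control libraries. Directly compared, MILIP siRNA2 differed from MILIP siRNA1 by a log2 fold change of -0.50 (SE 0.0643, edgeR adjusted p = 2.83e-07). An exact two-sided permutation test over the libraries gave p = 0.1 for MILIP siRNA2 against control and p = 0.5 for MILIP siRNA1 against control, where 0.1 is the smallest p that 3 libraries against 3 allow. TRIM28 lies on the plus strand at chr19:58544064-58550722 (GRCh38), its start 70047 bases from that of ZNF446, the last ZNF gene of cluster 16, and the microRNA gene MIR6807 lies within it.

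The listed genes of TRIM28 partners and of other heterochromatin factors were lower with MILIP siRNA1 where they changed, and moved in both directions with MILIP siRNA2. Of these 27 genes, 0 were higher and 13 lower with MILIP siRNA1 (median log2 fold change -0.17) by edgeR's quasi-likelihood test at an adjusted p below 0.05, and 4 were higher and 13 lower with MILIP siRNA2 (median -0.11). By that test 25.1% of all tested genes were higher and 25.3% lower with MILIP siRNA1, and 27.2% were higher and 28.9% lower with MILIP siRNA2. At an unadjusted p below 0.05 edgeR gave 1 of the 27 genes higher with MILIP siRNA1, SETDB1, and DESeq2 and limma on log2 FPKM called 0.

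SETDB1, the methyltransferase TRIM28 recruits, had 37.2, 37.6 and 32.9 CPM in MILIP siRNA1 libraries and 27.2, 26.9 and 28.6 CPM in MILIP siRNA2 libraries, against 31.4, 32.95 and 31.1 CPM in control libraries. It was lower with MILIP siRNA2 at a log2 fold change of -0.21 (SE 0.0824, edgeR adjusted p = 0.0361), while the value with MILIP siRNA1 was 0.17 (SE 0.0812, edgeR adjusted p = 0.0799). UHRF1, which reads methylated histone H3 lysine 9 and hemimethylated DNA, had 188, 185 and 189 CPM in MILIP siRNA1 libraries and 137, 151 and 143 CPM in MILIP siRNA2 libraries, against 262, 285 and 279 CPM in control libraries. All libraries of both siRNAs lay under control, with log2 fold changes of -0.56 (SE 0.0574, edgeR adjusted p = 1.32e-08) for MILIP siRNA1 and -0.94 (SE 0.0579, edgeR adjusted p = 9.55e-13) for MILIP siRNA2. DNMT1, the maintenance DNA methyltransferase, was lower with each siRNA at -0.32 with MILIP siRNA1 and -0.64 with MILIP siRNA2 on the log2 scale. SUV39H1, another histone H3 lysine 9 methyltransferase, was lower at -0.41 with MILIP siRNA1 and -0.86 with MILIP siRNA2. SUMO2, whose protein modifies TRIM28, was lower with MILIP siRNA1 at -0.79 and with MILIP siRNA2 at -0.26. CHD3, a remodeller of the NuRD complex that binds sumoylated TRIM28, had 201, 199 and 202 CPM in MILIP siRNA1 libraries and 347, 341 and 326 CPM in MILIP siRNA2 libraries, against 253, 259 and 230.2 CPM in control libraries. CHD3 fell with MILIP siRNA1, at -0.30 (SE 0.0571, edgeR adjusted p = 9.18e-05), and rose with MILIP siRNA2, at 0.45 (SE 0.0566, edgeR adjusted p = 2.53e-07). MILIP siRNA2 against MILIP siRNA1 gave 0.75 (SE 0.0569, edgeR adjusted p = 2.65e-11) for CHD3. CHD4, the other NuRD remodeller on the list, was at -0.10 (SE 0.0889, edgeR adjusted p = 0.349) with MILIP siRNA1 and fell with MILIP siRNA2 at -0.51 (SE 0.0905, edgeR adjusted p = 3.07e-05).

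**Figure D1:**
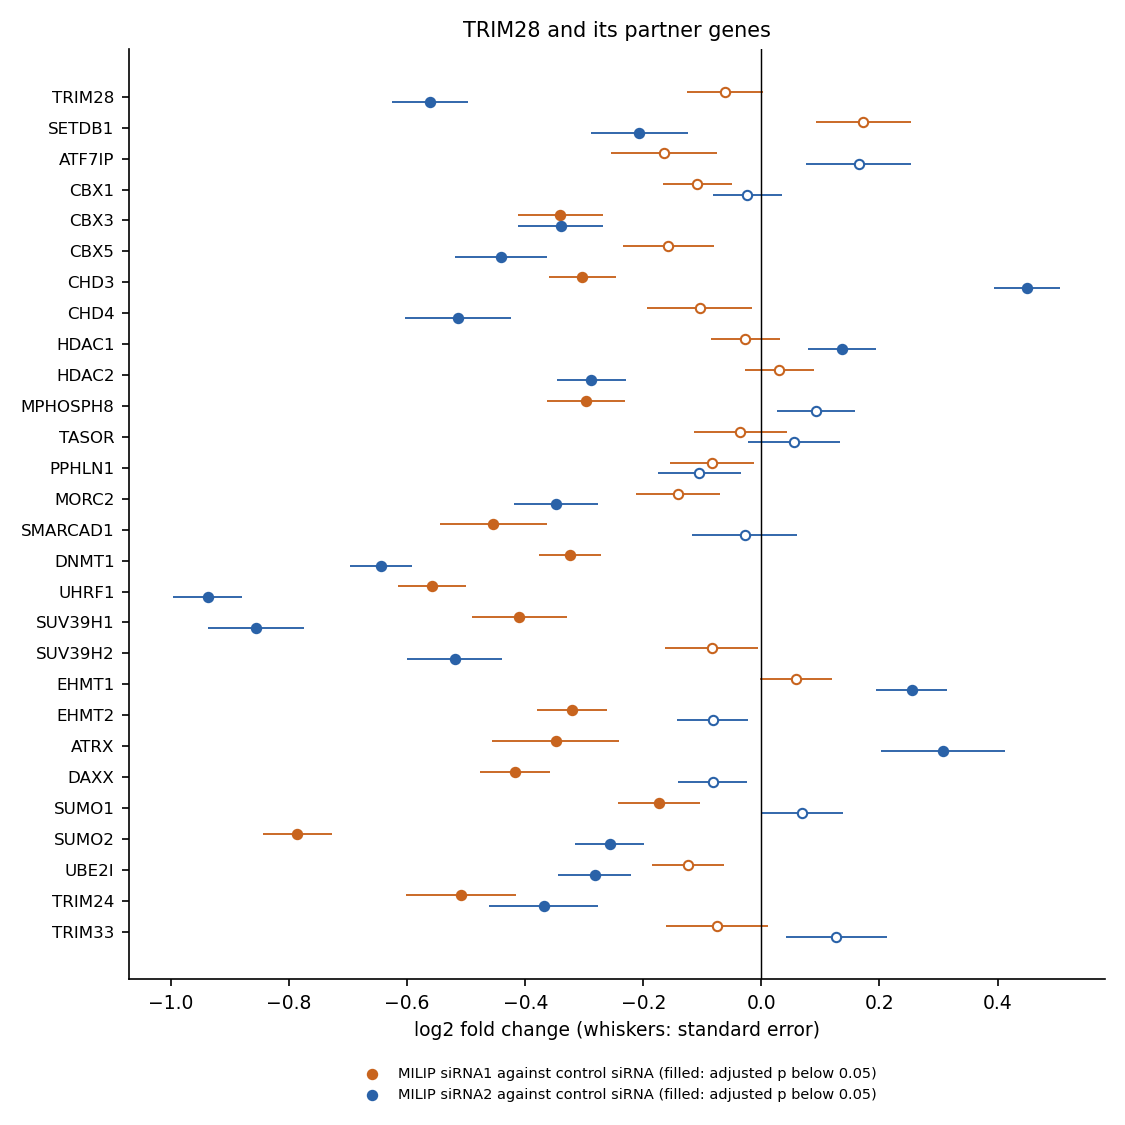
Log2 fold change of TRIM28 and 27 genes of its partners and other heterochromatin factors, with MILIP siRNA1 and with MILIP siRNA2, each against control siRNA. Values are from the edgeR fit of 9 libraries, where points are fold changes and bars are standard errors. UHRF1 lies left of 0 with both siRNAs (-0.56 and -0.94), TRIM28 lies at -0.06 and -0.56, and CHD3 lies on opposite sides (-0.30 and 0.45).

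With MILIP siRNA1 the ZNF genes that changed mostly rose, and with MILIP siRNA2 those that changed mostly fell. Their summed level was 1893, 1951 and 1896 CPM in MILIP siRNA1 libraries and 1673, 1663 and 1641 CPM in MILIP siRNA2 libraries, against 1823, 1802 and 1777 CPM in control libraries. The 3 groups did not overlap, with MILIP siRNA1 on top and MILIP siRNA2 at the bottom. With MILIP siRNA1, 51 ZNF genes were higher (24.2% of them, against 25.1% of all genes tested) and 18 lower (8.53%, against 25.3%), with a median log2 fold change of 0.13 where that of all genes was 0.003. With MILIP siRNA2, 27 were higher (12.8%, against 27.2%) and 63 lower (29.9%, against 28.9%), with a median of -0.11 where that of all genes was -0.011. The share lower with MILIP siRNA2 and the share higher with MILIP siRNA1 were near those of all genes, while the share higher with MILIP siRNA2 and the share lower with MILIP siRNA1 were below them. Between the siRNAs, 17 ZNF genes were higher with MILIP siRNA2 than with MILIP siRNA1 (8.06%, against 28.4% of all genes) and 83 lower (39.3%, against 32.0%), with a median of -0.26 where that of all genes was -0.033. By libraries alone, all 3 MILIP siRNA1 libraries lay above all 3 control libraries in 60 ZNF genes and below them in 28, which 27.3% and 26.5% of all genes did. For MILIP siRNA2 against control those counts were 34 above and 69 below, against 30.3% and 31.5% of all genes. For MILIP siRNA2 against MILIP siRNA1 they were 26 above and 90 below, against 31.1% and 34.4%.

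Large changes were few with MILIP siRNA1 and mostly falls with MILIP siRNA2. Past the test and 2-fold, 9 ZNF genes were higher with MILIP siRNA1 and 0 lower, where 5.59% of all genes were higher and 4.26% lower, and DESeq2 and limma on log2 FPKM also gave 0 lower. The 18 lower at the adjusted p all stayed within 2-fold, the lowest being ZNF584 at a log2 fold change of -0.93. With MILIP siRNA2, 3 ZNF genes were at least 2-fold higher and 17 lower, against 6.06% and 4.82% of all genes. Between the siRNAs, 3 ZNF genes were at least 2-fold higher with MILIP siRNA2 and 32 lower, against 7.55% and 7.34% of all genes, and 17 of the 32 lay in cluster 5.

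Other genes near them and other zinc finger genes gave their own counts. The 219 tested ZNF genes of other chromosomes were higher in 43 and lower in 55 cases with MILIP siRNA1 (median -0.03), and higher in 17 and lower in 108 with MILIP siRNA2 (7.76% and 49.3%, median -0.28). On chromosome 19 the 827 tested genes outside the members were higher in 248 and lower in 154 cases with MILIP siRNA1 (median 0.08), and higher in 242 and lower in 225 with MILIP siRNA2 (median 0.04). A set of 4745 genes of like level had medians of 0.04 with MILIP siRNA1 and -0.03 with MILIP siRNA2. Among the members, the 193 with the KRAB annotation were higher in 45 and lower in 18 cases with MILIP siRNA1, and higher in 26 and lower in 60 with MILIP siRNA2. The 18 without it were higher in 6 and lower in 0 cases with MILIP siRNA1 (2 lower by edgeR at an unadjusted p below 0.05, 0 by DESeq2 or limma), and higher in 1 and lower in 3 with MILIP siRNA2. None of these differences between sets was tested.

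**Figure D2:**
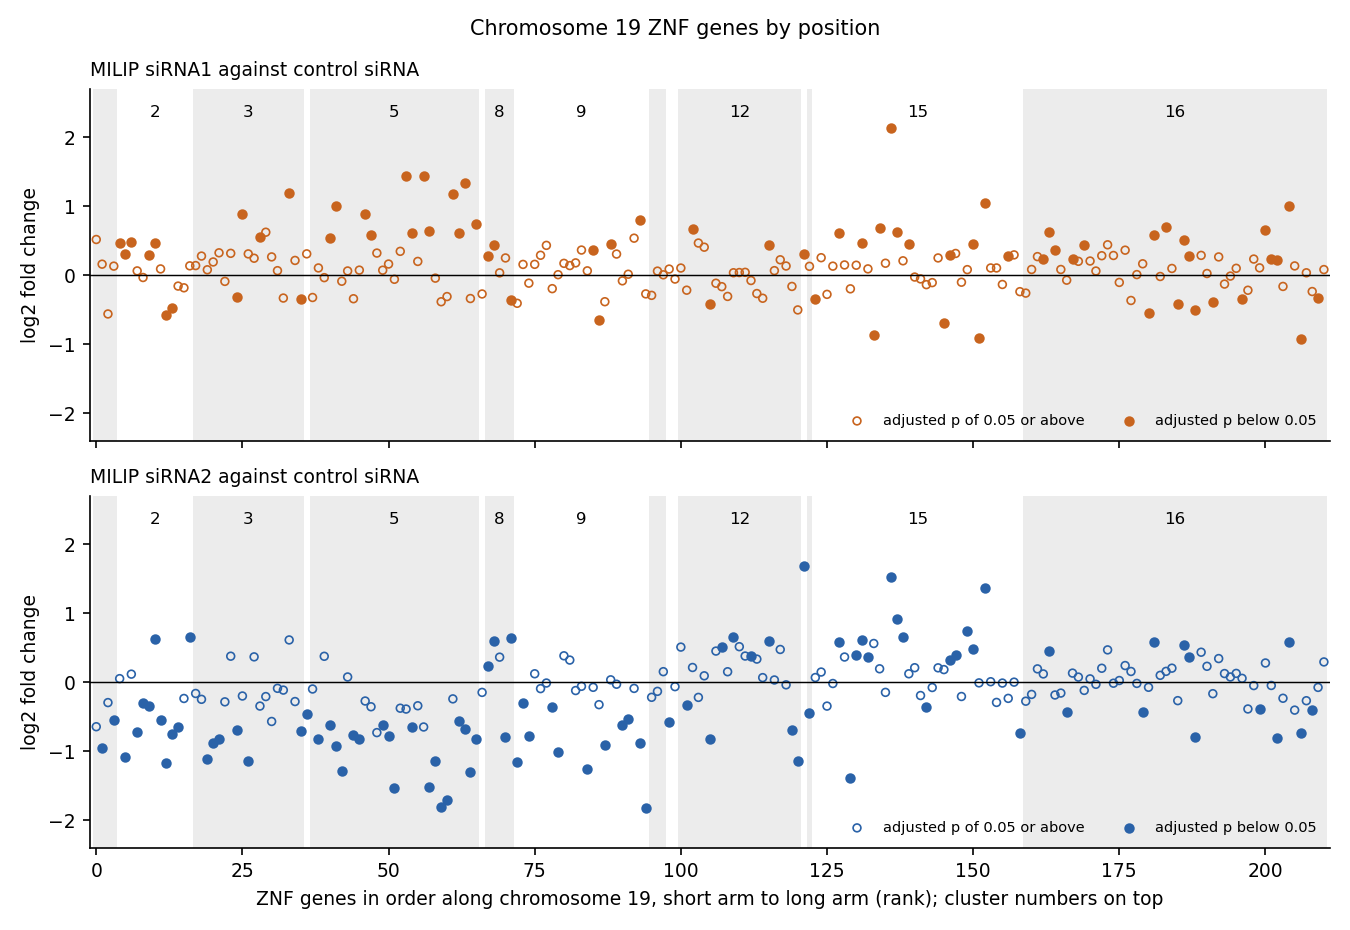
Log2 fold change of the 211 ZNF genes in their order along chromosome 19, for MILIP siRNA1 against control (upper panel) and MILIP siRNA2 against control (lower panel); filled points have an edgeR adjusted p below 0.05 and shaded bands are the numbered clusters. Cluster 5 stands mostly above 0 in the upper panel (median 0.20) and mostly below it in the lower one (median -0.68), and cluster 15 stands mostly above 0 in both (medians 0.14 and 0.17).

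Cluster 5, on the short arm between 19.67 and 24.13 Mb and running from ZNF101 to ZNF254, changed in 1 direction with each siRNA. Of its 29 members, 12 were higher and 0 lower with MILIP siRNA1 (41.4% higher, median log2 fold change 0.20), and 0 were higher and 18 lower with MILIP siRNA2 (62.1% lower, median -0.68). Of all genes tested 25.1% were higher and 25.3% lower with MILIP siRNA1, and 27.2% were higher and 28.9% lower with MILIP siRNA2. Between the siRNAs 25 were lower with MILIP siRNA2 and 0 higher (86.2% lower, median -1.15). At an unadjusted p below 0.05 edgeR gave 2 lower with MILIP siRNA1 and 0 higher with MILIP siRNA2, and DESeq2 and limma on log2 FPKM called 0 of either. None of these gave a member higher with MILIP siRNA2 than with MILIP siRNA1. Their summed level was 148, 173 and 154 CPM in MILIP siRNA1 libraries and 67.1, 79.2 and 78.0 CPM in MILIP siRNA2 libraries, against 127, 119 and 118 CPM in control libraries. The groups were fully apart, MILIP siRNA1 above control and MILIP siRNA2 below it. Genes of this cluster are close copies of each other, and reads that fit several of them may have been split between them or dropped in counting, so the values of single genes here are less certain than the sum.

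A short word stood in nearly all promoters of this cluster, and is shown because the genes that hold it can be followed beyond the cluster. Promoters of 300 bases, from 250 before to 50 after the start of the gene (RefSeq, GRCh38.p14), were matched for 188 of the ZNF genes, and TCCAATCAGG, which holds the CCAAT box, had the greatest excess in them over other promoters among their 300 most frequent words of 10 letters, searched on both strands. It was chosen after the data were seen, by its frequency and not by fold changes. It stood in 36 of the 188 (19.1%) and in 70 of 27117 other promoters (0.258%). Cluster 5 held it in 24 of 25 matched promoters, cluster 3 in 10 of 19 and cluster 1 in 2 of 4, and no other cluster held it. On the gene's own strand it began between 88 and 30 bases before the start in cluster 5, at a median of 58 bases before. The following windows of 30 bases run 5′ to 3′ on the gene's strand with the word in capitals, for 9 of the cluster 5 genes described below and 1 gene each of clusters 3 and 1.
ZNF100: ctggaaaccgTCCAATCAGGcatgcagctg
ZNF681: ctgggaactgTCCAATCAGGcatgcagctg
ZNF254: ctgggaactgTCCAATCAGGcacacagctg
ZNF714: ttgggaaccgTCCAATCAGGcctgcagctg
ZNF492: ctgggaactgTCCAATCAGGcacgcagctg
ZNF91: ctgggaactgTCCAATCAGGcacaaagctg
ZNF708: tttaacattaTCCAATCAGGgactctgagc
ZNF93: ttaagaattaTCCAATCAGGgacgctgggc
ZNF43: ttagaagttaTCCAATCAGGgacgctgggc
ZNF441: tggcgcactaTCCAATCAGGgccgcggggc
ZNF57: gaagttatctTCCAATCAGGtgctccgggg
Of the 20 bases around the word, ZNF254 shared 19 with ZNF91, ZNF492 shared 18, ZNF681 17, ZNF100 15 and ZNF714 14. ZNF93 shared 8 with ZNF91 and 17 with ZNF43, and ZNF708 shared 6 with ZNF91 and 14 with ZNF43. In the order of the lines above, the windows lie on GRCh38 at chr19:21767612-21767641 (minus strand), chr19:23758930-23758959 (minus strand), chr19:24087124-24087153 (plus strand), chr19:21082134-21082163 (plus strand), chr19:22634261-22634290 (plus strand), chr19:23395511-23395540 (minus strand), chr19:21329423-21329452 (minus strand), chr19:19900851-19900880 (plus strand), chr19:21836251-21836280 (minus strand), chr19:11766955-11766984 (plus strand) and chr19:2900685-2900714 (plus strand).

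ZNF100 moved in opposite directions with the siRNAs and had the largest difference between them among the called members whose libraries lay apart. It had 10.9, 9.15 and 8.88 CPM in MILIP siRNA1 libraries and 1.81, 2.29 and 2.33 CPM in MILIP siRNA2 libraries, against 7.22, 4.95 and 6.17 CPM in control libraries. Every MILIP siRNA1 library was above and every MILIP siRNA2 library below all control libraries. The log2 fold changes were 0.65 (SE 0.152, edgeR adjusted p = 0.000925) with MILIP siRNA1 and -1.51 (SE 0.186, edgeR adjusted p = 1.71e-07) with MILIP siRNA2, and MILIP siRNA2 against MILIP siRNA1 gave -2.16 (SE 0.175, edgeR adjusted p = 8.89e-11). ZNF253 had 5.64, 5.33 and 4.57 CPM in MILIP siRNA1 libraries and 1.28, 1.78 and 0.932 CPM in MILIP siRNA2 libraries, against 2.902, 2.25 and 2.53 CPM in control libraries. Its groups were apart as well, with log2 fold changes of 1.01 (SE 0.209, edgeR adjusted p = 0.000269) and -0.93 (SE 0.251, edgeR adjusted p = 0.00286) for MILIP siRNA1 and MILIP siRNA2. ZNF254, at the centromere end of the cluster, rose with MILIP siRNA1 at 0.74 (SE 0.197, edgeR adjusted p = 0.00278) and fell with MILIP siRNA2 at -0.83 (SE 0.228, edgeR adjusted p = 0.00327).

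ZNF681 had 5.26, 6.57 and 4.67 CPM in MILIP siRNA1 libraries and 1.18, 1.07 and 1.86 CPM in MILIP siRNA2 libraries, against 2.902, 1.85 and 1.76 CPM in control libraries. All MILIP siRNA1 libraries stood above control, while 1 MILIP siRNA2 library at 1.86 CPM lay inside the control range. The rise with MILIP siRNA1 was 1.34 (SE 0.232, edgeR adjusted p = 3.30e-05), and the fall with MILIP siRNA2 was -0.68 (SE 0.2802, edgeR adjusted p = 0.0426). That fall was lost without control replicate 1 (-0.39), MILIP siRNA2 replicate 1 (-0.59) or MILIP siRNA2 replicate 2 (-0.52), at edgeR adjusted p of 0.126 to 0.297. It was also lost by DESeq2, by limma at either pseudocount and with the 2 groups fitted alone, at adjusted p of 0.0615 to 0.151. ZNF738, ZNF675, an inhibitor of TRAF6 signalling, and ZNF506 rose with MILIP siRNA1 by 0.61, 0.61 and 0.55 on the log2 scale, and with MILIP siRNA2 they stood at -0.64, -0.57 and -0.62, each past the test.

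Other genes of cluster 5 passed the test against control with 1 of the siRNAs; ZNF91, ZNF708 and ZNF429 did so with MILIP siRNA1, and ZNF714, ZNF492, ZNF724, ZNF93 and ZNF43 with MILIP siRNA2. ZNF91, whose protein represses SVA and LINE-1 elements, had 16.7, 19.7 and 18.7 CPM in MILIP siRNA1 libraries and 6.67, 7.11 and 6.81 CPM in MILIP siRNA2 libraries, against 7.72, 7.86 and 8.76 CPM in control libraries. Every MILIP siRNA1 library lay above all others. It rose by 1.18 (SE 0.112, edgeR adjusted p = 3.34e-09) with MILIP siRNA1, and with MILIP siRNA2 its value was -0.24 (SE 0.124, edgeR adjusted p = 0.103). ZNF708 had 4.62, 3.99 and 3.9 CPM in MILIP siRNA1 libraries and 0.961, 1.37 and 1.17 CPM in MILIP siRNA2 libraries, against 1.67, 1.58 and 1.35 CPM in control libraries. It rose with MILIP siRNA1, at 1.44 (SE 0.228, edgeR adjusted p = 1.00e-05), while MILIP siRNA2 gave -0.39 (SE 0.271, edgeR adjusted p = 0.2303). ZNF429 had 2.15, 2.19 and 1.95 CPM in MILIP siRNA1 libraries and 0.3204, 0.66 and 0.466 CPM in MILIP siRNA2 libraries, against 0.494, 0.792 and 0.999 CPM in control libraries, and rose with MILIP siRNA1 at 1.45 (SE 0.333, edgeR adjusted p = 0.000795). In both genes MILIP siRNA1 libraries lay above all others, while MILIP siRNA2 and control libraries overlapped. The siRNAs differed from each other in both, ZNF708 by -1.83 and ZNF429 by -2.09 on the log2 scale for MILIP siRNA2 against MILIP siRNA1.

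ZNF714 had 3.93, 6.06 and 4.98 CPM in MILIP siRNA1 libraries and 1.39, 1.93 and 2.097 CPM in MILIP siRNA2 libraries, against 4.69, 5.75 and 5.23 CPM in control libraries. Its MILIP siRNA2 libraries all lay below the others, and the MILIP siRNA1 and control libraries overlapped. The log2 fold change was -1.53 (SE 0.211, edgeR adjusted p = 9.88e-07) with MILIP siRNA2 and -0.06 (SE 0.182, edgeR adjusted p = 0.815) with MILIP siRNA1. ZNF492 fell with MILIP siRNA2 at -1.81 (SE 0.342, edgeR adjusted p = 7.48e-05) and ZNF724 at -1.70 (SE 0.308, edgeR adjusted p = 4.21e-05). ZNF93, whose protein represses LINE-1 elements, averaged 5.24 ± 0.2404 CPM in MILIP siRNA1 libraries and 2.28 ± 0.578 CPM in MILIP siRNA2 libraries, against 5.58 ± 1.07 CPM in control libraries (SD, n = 3 each). It fell with MILIP siRNA2 at -1.29 (SE 0.201, edgeR adjusted p = 5.72e-06), and ZNF43 at -1.14 (SE 0.147, edgeR adjusted p = 4.03e-07). With MILIP siRNA1 the values of ZNF93 and ZNF43 were -0.09 and -0.04, not past the test. Antisense or pseudogene transcripts overlap ZNF100, ZNF253, ZNF254, ZNF91, ZNF708, ZNF429, ZNF714, ZNF93, ZNF43, ZNF492, ZNF724 and ZNF675 on the other strand, and ZNF56 overlaps ZNF506 there, and their reads cannot be told apart from the gene's, since no source used here states the strandedness.

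**Figure D3:**
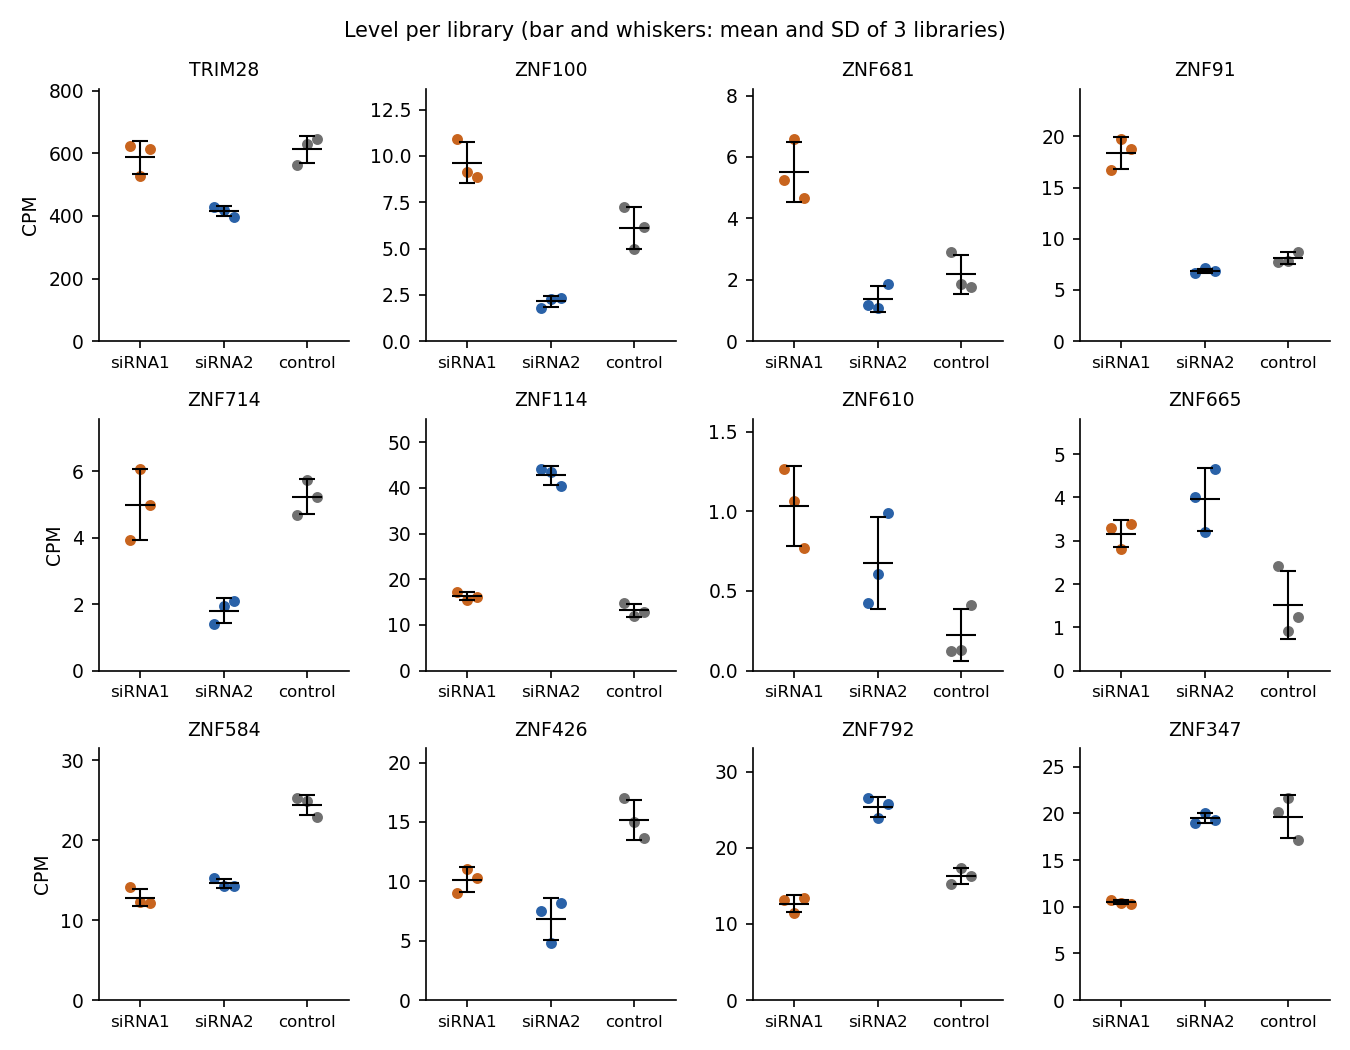
CPM per library of TRIM28 and 11 ZNF genes in MILIP siRNA1, MILIP siRNA2 and control libraries (points), with the mean and SD (n = 3 each); each panel has its own linear axis. ZNF100 and ZNF681 are highest with MILIP siRNA1, ZNF114 is highest with MILIP siRNA2 (40.5 to 44.2 CPM), and ZNF584 is lower with each siRNA than in control.

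Members with the promoter word that changed with MILIP siRNA2 all fell, and those that changed with MILIP siRNA1 rose, except ZNF791. The shares over all genes were 25.1% higher and 25.3% lower with MILIP siRNA1, and 27.2% higher and 28.9% lower with MILIP siRNA2. Of the 36 members with it, 11 were higher and 1 lower with MILIP siRNA1 (median log2 fold change 0.18), and 0 were higher and 20 lower with MILIP siRNA2 (median -0.66). For that 0, edgeR at an unadjusted p below 0.05, DESeq2 and limma on log2 FPKM also gave 0. Of the 152 members with a matched promoter and no word, 32 were higher and 16 lower with MILIP siRNA1 (median 0.10), and 20 were higher and 38 lower with MILIP siRNA2 (median -0.04). Between the siRNAs 29 of the 36 and 48 of the 152 were lower with MILIP siRNA2. Since 24 of the 36 lie in cluster 5, word and position cannot be told apart there. In cluster 3, where both kinds occur, 4 of 10 with the word were lower with MILIP siRNA2 (median -0.26), against 2 of 9 without it (median -0.28). Outside the members, 37 tested genes had the word. Of these, 9 were higher and 3 lower with MILIP siRNA1 (median 0.09), and 4 were higher and 21 lower with MILIP siRNA2 (median -0.54). They included 13 ZNF genes on other chromosomes, 12 of them lower with MILIP siRNA2, such as ZNF195 on chromosome 11 at -0.94, ZNF92 on chromosome 7 at -0.80 and ZNF678 on chromosome 1 at -0.94 on the log2 scale. With or without the word, 49.3% of the 219 tested ZNF genes on other chromosomes were lower with MILIP siRNA2. Of the 21 genes outside the members that held the word and were lower with MILIP siRNA2, 9 were not ZNF genes. The 21 made 56.8% of the 37, against 28.9% of all genes tested. The bare CCAAT box, on either strand, stood in 101 of the 188 member promoters (53.7%) and in 9747 of 27305 promoters (35.7%).

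**Figure D4:**
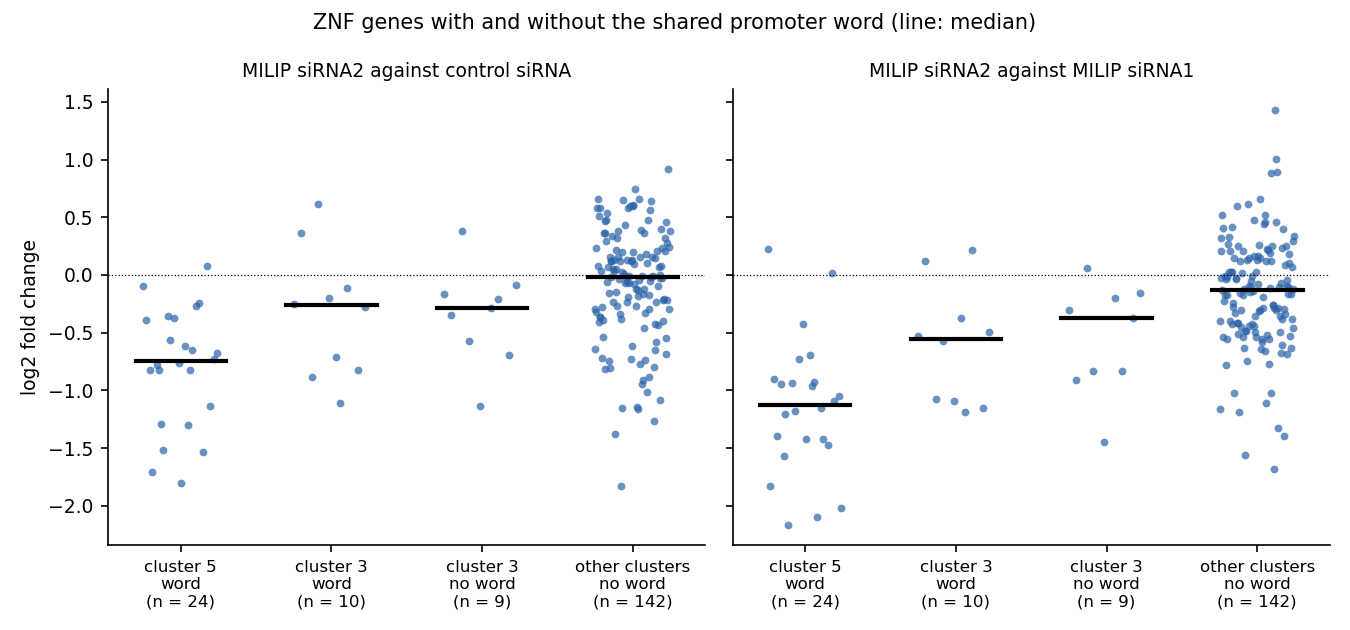
Log2 fold change of ZNF genes with a matched promoter, for MILIP siRNA2 against control and MILIP siRNA2 against MILIP siRNA1, split by cluster and by the promoter word; points are genes and lines are medians. Cluster 5 genes with the word (n = 24) have the lowest medians of the sets drawn (-0.75 and -1.12), and in cluster 3 the genes with the word (n = 10, -0.26) and without it (n = 9, -0.28) have like medians against control.

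The other short-arm clusters held falls with MILIP siRNA2, where 28.9% of all genes were lower and 27.2% higher. With MILIP siRNA1 25.3% of all genes were lower and 25.1% higher. Cluster 1, between 2.82 and 2.94 Mb, had 4 members, of which 0 were called with MILIP siRNA1 and 2 fell with MILIP siRNA2, ZNF555 at -0.95 (SE 0.199, edgeR adjusted p = 0.000239) and ZNF77 at -0.55 (SE 0.206, edgeR adjusted p = 0.0251). Cluster 2, between 7.07 and 9.79 Mb, had 13 members, of which 5 were higher and 2 lower with MILIP siRNA1 and 2 were higher and 8 lower with MILIP siRNA2 (61.5% lower, median -0.34). Their summed level averaged 209 ± 2.14 CPM in MILIP siRNA1 libraries and 158 ± 3.47 CPM in MILIP siRNA2 libraries, against 211 ± 9.17 CPM in control libraries (SD, n = 3 each). Cluster 3, between 11.48 and 12.64 Mb, had 19 members, of which 3 were higher and 2 lower with MILIP siRNA1 (median 0.25) and 0 were higher and 6 lower with MILIP siRNA2 (31.6% lower, near the share of all genes, median -0.28). Its sum averaged 92.6 ± 1.19 CPM in MILIP siRNA1 libraries and 64.7 ± 1.69 CPM in MILIP siRNA2 libraries, against 86.96 ± 3.07 CPM in control libraries (SD, n = 3 each). For the counts of 0 in clusters 1 and 3, edgeR at an unadjusted p below 0.05, DESeq2 and limma on log2 FPKM also gave 0. ZNF333 stood alone as cluster 4, at 0.31 (SE 0.136, edgeR adjusted p = 0.0596) with MILIP siRNA1 and -0.46 (SE 0.143, edgeR adjusted p = 0.00884) with MILIP siRNA2.

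In cluster 2, ZNF426 was among the members lowest with each siRNA. It had 8.99, 11.1 and 10.3 CPM in MILIP siRNA1 libraries and 7.47, 4.82 and 8.15 CPM in MILIP siRNA2 libraries, against 16.98, 14.99 and 13.6 CPM in control libraries. Control libraries were all above the others, with log2 fold changes of -0.58 (SE 0.142, edgeR adjusted p = 0.00135) for MILIP siRNA1 and -1.16 (SE 0.148, edgeR adjusted p = 3.12e-07) for MILIP siRNA2. ZNF121 fell as well, at -0.47 (SE 0.093, edgeR adjusted p = 0.000157) and -0.75 (SE 0.0943, edgeR adjusted p = 2.72e-07) for MILIP siRNA1 and MILIP siRNA2. ZNF358 had 19.2, 14.8 and 20.3 CPM in MILIP siRNA1 libraries and 7.796, 6.6 and 6.23 CPM in MILIP siRNA2 libraries, against 12.6, 14.5 and 16.8 CPM in control libraries. It fell with MILIP siRNA2 at -1.09 (SE 0.1397, edgeR adjusted p = 3.56e-07), with its libraries apart from all others. Its value with MILIP siRNA1 was 0.31 (SE 0.126, edgeR adjusted p = 0.0445), with overlapping groups, and that call was lost without control replicate 1 (0.21) or 2 (0.30), MILIP siRNA1 replicate 1 (0.25) or 3 (0.21), or MILIP siRNA2 replicate 2 (0.31) or 3 (0.31), at edgeR adjusted p of 0.0504 to 0.223. It was also lost by DESeq2, by limma at either pseudocount and with the 2 groups fitted alone, at adjusted p of 0.0539 to 0.121. ZNF699 rose with MILIP siRNA1 by 0.29 and fell with MILIP siRNA2 by 0.34 on the log2 scale. The largest rise with MILIP siRNA2 in this cluster was that of ZNF846 at 0.66 (SE 0.248, edgeR adjusted p = 0.0261), lost without control replicate 2 (0.56) or 3 (0.65), or MILIP siRNA2 replicate 1 (0.66) or 2 (0.65), at edgeR adjusted p of 0.0531 to 0.0934, and by DESeq2 (adjusted p = 0.0936).

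In cluster 3, ZNF844 fell with MILIP siRNA2 at -1.14 (SE 0.259, edgeR adjusted p = 0.000578) and ZNF823 at -1.11, ZNF441 at -0.88 and ZNF440 at -0.82 on the log2 scale. ZNF791 was lower with each siRNA, at -0.34 (SE 0.104, edgeR adjusted p = 0.00875) for MILIP siRNA1 and -0.71 (SE 0.107, edgeR adjusted p = 3.42e-06) for MILIP siRNA2. The largest rise with MILIP siRNA1 was that of ZNF564 at 1.19 (SE 0.405, edgeR adjusted p = 0.0172), whose groups overlapped. It was lost without control replicate 1 (1.10), control replicate 3 (0.98) or MILIP siRNA1 replicate 3 (0.88), at edgeR adjusted p of 0.0594 to 0.137, and by DESeq2 (adjusted p = 0.0705). ZNF433 and ZNF44 rose with MILIP siRNA1 by 0.89 and 0.56 on the log2 scale.

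On the long arm, the first cluster of at least 5 members was cluster 8, between 34.68 and 34.96 Mb. Of its 5 members 2 were higher and 1 lower with MILIP siRNA1, where 25.1% of all genes were higher and 25.3% lower. With MILIP siRNA2 3 were higher and 1 lower, where 27.2% of all genes were higher and 28.9% lower. The shares higher were above those of all genes and the shares lower below them, on 5 members only. The sum of the members averaged 46.03 ± 0.2196 CPM in MILIP siRNA1 libraries and 57.1 ± 2.12 CPM in MILIP siRNA2 libraries, against 43.6 ± 0.653 CPM in control libraries (SD, n = 3 each). ZNF792 had 13.2, 11.4 and 13.4 CPM in MILIP siRNA1 libraries and 26.5, 23.9 and 25.8 CPM in MILIP siRNA2 libraries, against 15.2, 17.4 and 16.3 CPM in control libraries. MILIP siRNA2 libraries lay above and MILIP siRNA1 libraries below the control range. It fell with MILIP siRNA1, at -0.36 (SE 0.104, edgeR adjusted p = 0.00561), and rose with MILIP siRNA2, at 0.64 (SE 0.0973, edgeR adjusted p = 4.05e-06). ZNF30 fell with MILIP siRNA2 at -0.79 (SE 0.223, edgeR adjusted p = 0.00388). ZNF181 rose with MILIP siRNA2 at 0.59 (SE 0.161, edgeR adjusted p = 0.00281). With MILIP siRNA1 it was at 0.43 (SE 0.164, edgeR adjusted p = 0.0311), a call lost without control replicate 3 (0.27, edgeR adjusted p = 0.206) or MILIP siRNA1 replicate 1 (0.34, edgeR adjusted p = 0.136), and by DESeq2 (adjusted p = 0.105). ZNF507 alone made up cluster 7, at -0.27 with MILIP siRNA1 and -0.15 with MILIP siRNA2, neither past the test, and ZNF536, the only gene of cluster 6, had no count.

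Cluster 9, between 36.18 and 37.82 Mb, had falls and no rises with MILIP siRNA2. Of its 23 members 3 were higher and 1 lower with MILIP siRNA1 (13.0% and 4.35%, against 25.1% and 25.3% of all genes), with a median of 0.16. With MILIP siRNA2 0 were higher and 11 lower (47.8% lower, against 27.2% higher and 28.9% lower over all genes), with a median of -0.30. ZNF genes on other chromosomes were near that, 7.76% being higher and 49.3% lower. At an unadjusted p below 0.05 edgeR gave 1 member of cluster 9 higher with MILIP siRNA2, as did limma on log2(FPKM + 1), while DESeq2 called 0. Its sum averaged 201 ± 15.9 CPM in MILIP siRNA1 libraries and 147 ± 3.699 CPM in MILIP siRNA2 libraries, against 181 ± 1.27 CPM in control libraries (SD, n = 3 each). ZNF573 had 1.33, 1.52 and 1.18 CPM in MILIP siRNA1 libraries and 0.3204, 0.508 and 0.524 CPM in MILIP siRNA2 libraries, against 1.79, 1.72 and 1.35 CPM in control libraries. MILIP siRNA2 libraries lay below all others, at -1.83 (SE 0.356, edgeR adjusted p = 0.000103) against control, and MILIP siRNA1 gave -0.27 (SE 0.3002, edgeR adjusted p = 0.481). ZNF420, known as APAK and a regulator of p53 activity, fell with MILIP siRNA2 by 1.26 on the log2 scale. ZNF607 had 8.74, 7.13 and 6.11 CPM in MILIP siRNA1 libraries and 2.67, 2.13 and 1.98 CPM in MILIP siRNA2 libraries, against 4.63, 3.63 and 4.29 CPM in control libraries. It rose with MILIP siRNA1 at 0.80 (SE 0.172, edgeR adjusted p = 0.000425) and fell with MILIP siRNA2 at -0.89 (SE 0.201, edgeR adjusted p = 0.000552), with all 3 groups apart. ZNF585B, which overlaps ZNF383 on the other strand, fell with MILIP siRNA1 at -0.65 (SE 0.172, edgeR adjusted p = 0.00295).

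ZNF146, the member with the highest control level per exon length, also lies in cluster 9, across from ZNF565 on the other strand. It had 76.8, 92.03 and 71.9 CPM in MILIP siRNA1 libraries and 59.1, 59.4 and 56.9 CPM in MILIP siRNA2 libraries, against 73.3, 71.9 and 70.5 CPM in control libraries. MILIP siRNA2 libraries lay below all others. It fell with MILIP siRNA2 at -0.30 (SE 0.0777, edgeR adjusted p = 0.00201). With MILIP siRNA1 it stood at 0.16 (SE 0.0768, edgeR adjusted p = 0.0913), and without MILIP siRNA1 replicate 3 at 0.23 (edgeR adjusted p = 0.0224). Of the other members high in control, ZNF317 fell with MILIP siRNA2 at -0.30 (SE 0.0779, edgeR adjusted p = 0.00227) and ZNF787 at -0.43 (SE 0.0931, edgeR adjusted p = 0.000354), and ZNF581 passed the test with neither, at 0.08 with MILIP siRNA1 and -0.16 with MILIP siRNA2.

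Cluster 12, between 43.53 and 45.08 Mb, had 21 members. With MILIP siRNA1 2 were higher and 1 lower (median 0.04), where 25.1% of all genes were higher and 25.3% lower. With MILIP siRNA2 4 were higher and 4 lower (median 0.21), where 27.2% of all genes were higher and 28.9% lower. All of these shares of the cluster were below those of all genes. Their sum averaged 130.2 ± 4.06 CPM in MILIP siRNA1 libraries and 127 ± 2.56 CPM in MILIP siRNA2 libraries, against 127 ± 1.86 CPM in control libraries (SD, n = 3 each). ZNF428 had 27.1, 23.9 and 29.1 CPM in MILIP siRNA1 libraries and 20.4, 19.2 and 18.9 CPM in MILIP siRNA2 libraries, against 14.5, 16.4 and 19.4 CPM in control libraries. It rose with MILIP siRNA1 at 0.67 (SE 0.106, edgeR adjusted p = 1.09e-05), all of whose libraries were above control. With MILIP siRNA2 it was at 0.21 (SE 0.109, edgeR adjusted p = 0.0982), and without control replicate 3 at 0.34 (edgeR adjusted p = 0.0122). ZNF296 fell with MILIP siRNA2 at -1.14 (SE 0.261, edgeR adjusted p = 0.0005996). ZNF45 was lower with each siRNA, at -0.42 (SE 0.117, edgeR adjusted p = 0.00461) for MILIP siRNA1, which was lost without control replicate 2 (-0.31, edgeR adjusted p = 0.0521), and -0.82 (SE 0.1203, edgeR adjusted p = 2.68e-06) for MILIP siRNA2. ZNF224, whose protein represses the aldolase A gene, rose with MILIP siRNA2 by 0.39 on the log2 scale, and ZNF155 at 0.50 (SE 0.155, edgeR adjusted p = 0.00743). Cluster 10 had 3 members, of which 0 passed the test in any comparison, by edgeR also at an unadjusted p below 0.05, by DESeq2 or by limma on log2 FPKM. Of the pair in cluster 11, ZNF574 fell with MILIP siRNA2 at -0.58 (SE 0.0853, edgeR adjusted p = 2.50e-06) and ZNF526 was at -0.06, not past the test. ZNF473, alone in cluster 14 and known for a part in histone pre-mRNA processing, fell with MILIP siRNA2 at -0.44 (SE 0.0976, edgeR adjusted p = 0.000424).

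ZNF114, the sole member of cluster 13, had the largest rise of any member with MILIP siRNA2 whose libraries lay apart. It had 17.3, 15.6 and 16.2 CPM in MILIP siRNA1 libraries and 44.2, 43.6 and 40.5 CPM in MILIP siRNA2 libraries, against 14.8, 12.02 and 12.9 CPM in control libraries. MILIP siRNA2 libraries stood above all others, and MILIP siRNA1 libraries above control. The log2 fold change was 1.69 (SE 0.09405, edgeR adjusted p = 1.37e-13) with MILIP siRNA2 and 0.30 (SE 0.101, edgeR adjusted p = 0.0151) with MILIP siRNA1. Between the siRNAs it was 1.39 (SE 0.0909, edgeR adjusted p = 1.78e-12). The antisense gene ZNF114-AS1 overlaps it.

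Cluster 15, between 51.57 and 53.58 Mb and running from ZNF175 to ZNF331, held rises and falls with each siRNA. Of its 36 members 10 were higher and 4 lower with MILIP siRNA1 (27.8% and 11.1%, median 0.14). With MILIP siRNA2 12 were higher and 3 lower (33.3% and 8.33%, median 0.17). Of all genes tested 25.1% were higher and 25.3% lower with MILIP siRNA1, and 27.2% were higher and 28.9% lower with MILIP siRNA2. By DESeq2 22.2% of the cluster were higher with MILIP siRNA2. Their summed level averaged 315 ± 8.43 CPM in MILIP siRNA1 libraries and 325 ± 6.402 CPM in MILIP siRNA2 libraries, against 303 ± 18.2 CPM in control libraries (SD, n = 3 each). ZNF665 had 3.29, 2.81 and 3.39 CPM in MILIP siRNA1 libraries and 4.005, 3.198 and 4.66 CPM in MILIP siRNA2 libraries, against 2.41, 0.924 and 1.23 CPM in control libraries. Both siRNA groups were above all control libraries, at 1.05 (SE 0.274, edgeR adjusted p = 0.00257) for MILIP siRNA1 and 1.36 (SE 0.265, edgeR adjusted p = 0.000105) for MILIP siRNA2. ZNF880 rose as well, at 0.63 (SE 0.172, edgeR adjusted p = 0.00383) for MILIP siRNA1 and 0.92 (SE 0.167, edgeR adjusted p = 4.53e-05) for MILIP siRNA2. ZNF350, known as ZBRK1 and a repressor that binds BRCA1, had 8.36, 8.03 and 8.93 CPM in MILIP siRNA1 libraries and 7.102, 9.39 and 8.33 CPM in MILIP siRNA2 libraries, against 5.43, 6.21 and 4.99 CPM in control libraries. It stood above control in both siRNA groups, at 0.61 (SE 0.143, edgeR adjusted p = 0.000939) for MILIP siRNA1 and 0.58 (SE 0.143, edgeR adjusted p = 0.00118) for MILIP siRNA2.

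ZNF610, close to the count minimum, had 1.27, 1.07 and 0.7698 CPM in MILIP siRNA1 libraries and 0.427, 0.609 and 0.99 CPM in MILIP siRNA2 libraries, against 0.123, 0.132 and 0.411 CPM in control libraries. Its control libraries held 2, 2 and 7 counts, of which the lower ones lie under the floor of 3 counts. The fitted log2 fold change was 2.14 (SE 0.517, edgeR adjusted p = 0.00126) with MILIP siRNA1 and 1.53 (SE 0.551, edgeR adjusted p = 0.0209) with MILIP siRNA2, and at such counts its size depends on the fit. The call with MILIP siRNA2 was lost without control replicate 1 (1.26) or 2 (1.28) or MILIP siRNA2 replicate 3 (1.17), at edgeR adjusted p of 0.0854 to 0.123, and by DESeq2 (adjusted p = 0.0538). ZNF160 rose with MILIP siRNA2 at 0.74 (SE 0.113, edgeR adjusted p = 4.69e-06) and stood at 0.08 with MILIP siRNA1.

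Falls in cluster 15 were fewer than rises, at 11.1% of its members with MILIP siRNA1 and 8.33% with MILIP siRNA2. Over all genes tested 25.3% and 28.9% were lower. ZNF614 had 14.2, 15.6 and 13.04 CPM in MILIP siRNA1 libraries and 6.57, 6.6 and 5.59 CPM in MILIP siRNA2 libraries, against 18.5, 16.6 and 13.98 CPM in control libraries. MILIP siRNA2 libraries lay below all others, with -1.38 (SE 0.128, edgeR adjusted p = 1.40e-09) for MILIP siRNA2 and -0.20 (SE 0.116, edgeR adjusted p = 0.168) for MILIP siRNA1. ZNF347, which overlaps ZNF415 on the same strand, had 10.7, 10.4 and 10.3 CPM in MILIP siRNA1 libraries and 19.01, 20.1 and 19.3 CPM in MILIP siRNA2 libraries, against 20.2, 21.6 and 17.1 CPM in control libraries. Here MILIP siRNA1 libraries lay below all others and fell at -0.90 (SE 0.106, edgeR adjusted p = 1.18e-07), while MILIP siRNA2 gave -0.01 (SE 0.0991, edgeR adjusted p = 0.945). ZNF468 fell with MILIP siRNA1 at -0.70 (SE 0.129, edgeR adjusted p = 7.80e-05). ZNF836 did so at -0.87 (SE 0.288, edgeR adjusted p = 0.0144), a call lost without control replicate 1 (-0.75, edgeR adjusted p = 0.0636) or MILIP siRNA1 replicate 2 (-0.75, edgeR adjusted p = 0.0579). For MILIP siRNA2 against MILIP siRNA1, ZNF347, ZNF468 and ZNF836 were higher by 0.89, 0.88 and 1.43 on the log2 scale. The imprinted gene ZNF331 fell with MILIP siRNA2 by 0.73.

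Cluster 16, between 55.48 and 58.48 Mb at the end of the long arm, was the largest, with 52 members. With MILIP siRNA1 13 were higher and 7 lower (median 0.10), where 25.1% of all genes were higher and 25.3% lower. With MILIP siRNA2 5 were higher and 7 lower (median 0.04), where 27.2% of all genes were higher and 28.9% lower. The share higher with MILIP siRNA1 was near that of all genes. The share lower with MILIP siRNA1 and both shares with MILIP siRNA2 were below those of all genes. Their sum averaged 592 ± 9.18 CPM in MILIP siRNA1 libraries and 537 ± 14.5 CPM in MILIP siRNA2 libraries, against 561 ± 11.3 CPM in control libraries (SD, n = 3 each). ZNF584 had 14.1, 12.3 and 12.1 CPM in MILIP siRNA1 libraries and 15.3, 14.3 and 14.3 CPM in MILIP siRNA2 libraries, against 25.2, 24.96 and 22.97 CPM in control libraries. Control libraries lay above all others, with log2 fold changes of -0.93 (SE 0.0986, edgeR adjusted p = 2.24e-08) for MILIP siRNA1 and -0.74 (SE 0.0967, edgeR adjusted p = 4.71e-07) for MILIP siRNA2. ZNF551 was lower with each siRNA too, at -0.51 with MILIP siRNA1 and -0.79 with MILIP siRNA2. ZNF544 had 31.3, 30.3 and 32.8 CPM in MILIP siRNA1 libraries and 14.8, 16.9 and 14.8 CPM in MILIP siRNA2 libraries, against 25.8, 27.1 and 28.4 CPM in control libraries. It rose with MILIP siRNA1 at 0.22 (SE 0.0861, edgeR adjusted p = 0.0403) and fell with MILIP siRNA2 at -0.80 (SE 0.0911, edgeR adjusted p = 4.75e-08), with all groups apart.

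ZNF497 rose with MILIP siRNA1 at 1.00 (SE 0.227, edgeR adjusted p = 0.000681). Its rise with MILIP siRNA2, at 0.58 (SE 0.234, edgeR adjusted p = 0.0384), was lost without control replicate 2 (0.41), MILIP siRNA2 replicate 2 (0.52) or MILIP siRNA2 replicate 3 (0.53), at edgeR adjusted p of 0.0963 to 0.169, and by DESeq2 (adjusted p = 0.0923). ZNF419 rose with each, at 0.58 (SE 0.166, edgeR adjusted p = 0.00506) for MILIP siRNA1 and 0.58 (SE 0.165, edgeR adjusted p = 0.004403) for MILIP siRNA2. ZNF274, whose protein binds the coding ends of zinc finger genes and recruits SETDB1 there, rose with MILIP siRNA1 by 0.24 and stood at -0.05 with MILIP siRNA2. TRIM28 lies just past this cluster.

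**Figure D5:**
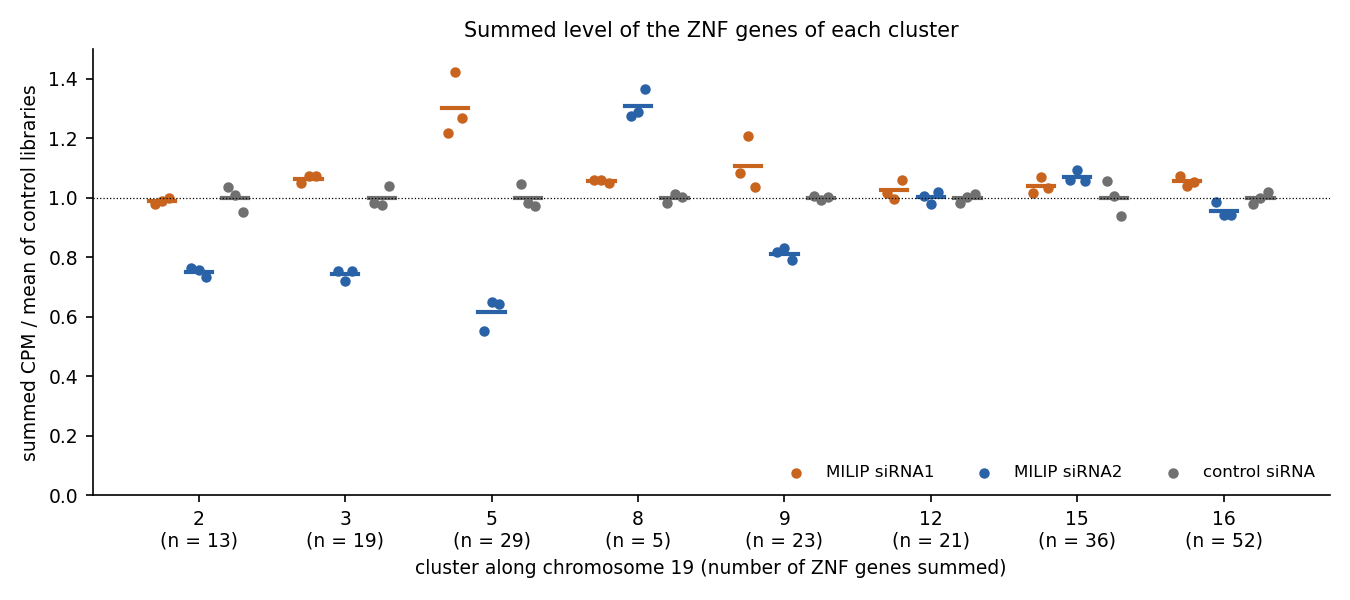
Summed CPM of the ZNF genes of each cluster of at least 5 members, divided by the mean of the control libraries, in MILIP siRNA1, MILIP siRNA2 and control libraries; points are libraries and lines are means. Cluster 5 spreads most, MILIP siRNA1 averaging 158 CPM and MILIP siRNA2 74.8 CPM against 121 CPM in control, and cluster 8 is highest with MILIP siRNA2 (57.1 CPM).

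Short words in the 3′ untranslated regions of the genes were also set beside the fold changes. The mean log2 fold changes of genes with and without each word of 7 letters were compared by a t statistic. Among the 16241 words held by at least 50 of these regions, AATTCCA had the most negative value with MILIP siRNA1 (-22.89) and GACCCTA with MILIP siRNA2 (-15.61). Both words were picked on these fold changes, so the values over all genes are a description: the median was -0.22 in genes with the first word against 0.04 without it for MILIP siRNA1, and -0.32 with the second against 0.01 without it for MILIP siRNA2. MILIP itself holds both. The sites are shown, 5′ to 3′ with 10 bases on either side and the word in capitals (GENCODE v29, GRCh38), for MILIP and for members that hold a word.
MILIP, first word: gagtcagggcAATTCCAaccaagaaac
ZNF426, first word: gccttacattAATTCCAcagaattttt
ZNF100, first word: ttttaaatgtAATTCCAcaattagtgt
MILIP, second word: gtaacatagaGACCCTAtcgctacaag
ZNF573, second word: gtcattgagaGACCCTAtgaatgcaaa
ZNF823, second word: tttggagataGACCCTAtgaatgtaaa
ZNF429, second word: atagcaagtgGACCCTAtatttggaat
In the order of these lines they lie at chr17:81930350-81930376 (plus strand), chr19:9527221-9527247 (minus strand), chr19:21723950-21723976 (minus strand), chr17:81930474-81930500 (plus strand), chr19:37739995-37740021 (minus strand), chr19:11721615-11721641 (minus strand) and chr19:21556196-21556222 (plus strand).

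Of 209 members with an annotated 3′ untranslated region, 37 held the MILIP siRNA1 word. For ZNF468, counted among them, the transcript with the word lies outside the coordinates that the table gives the gene. With MILIP siRNA1 7 of these were higher and 6 lower (18.9% and 16.2%, median log2 fold change -0.06), against a median of 0.15 in the 172 without it. Over all genes with that word, which was picked on these fold changes, 15.2% were higher and 46.8% lower, and over all genes tested 25.1% and 25.3%. ZNF426, which holds it, fell with MILIP siRNA1, and ZNF100, which also holds it, rose. The MILIP siRNA2 word stood in 10 members. With MILIP siRNA2 1 of these was higher and 4 lower (10.0% and 40.0%, median -0.44), against a median of -0.09 in the 199 without it. Over all genes with the second word, picked in the same way, 16.3% were higher and 53.0% lower, and over all genes tested 27.2% and 28.9%. ZNF573 and ZNF823, which hold it, fell with MILIP siRNA2. In cluster 5 the MILIP siRNA2 word stood in 1 member, ZNF429, which was at -0.65 (SE 0.414, edgeR adjusted p = 0.1897) with MILIP siRNA2. All 18 cluster 5 members that fell with MILIP siRNA2 lacked it.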

How the data were processed

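RNA of 9 MDA-MB-231 libraries was sequenced, and the authors deposited 1 count for each gene in each library, with FPKM values that the authors computed from these counts (recomputed here within 0.005). Per the submitters' processing notes the tools included Trimmomatic 0.30, HISAT2 2.0.1, HTSeq 0.6.1 and DESeq. The notes name hg19, but the listed coordinates match GRCh38: 99.90% of 58394 identifiers overlapped the same gene in GENCODE v29. No source used here gives the strandedness.

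Members, lists and tests were chosen with earlier results of these data known. Counts were filtered with filterByExpr, scaled by TMM and tested across 15345 genes in 1 fit of the 3 groups with edgeR's quasi-likelihood test, two-sided, with Benjamini-Hochberg adjustment over all genes tested (R 4.3.3, edgeR 4.0.16), and a gene was called when its adjusted p was under 0.05. CPM are TMM-scaled. The common biological coefficient of variation was 0.0641, and library totals ran from 15281220 to 19759371, so 3 counts, taken as the floor, were 0.152 to 0.198 CPM. DESeq2 1.42.0, limma 3.58.1 on log2(FPKM + 1) and log2(FPKM + 0.1), other scalings, filters and thresholds, and each library left out were alternatives. The fit was also run on counts simulated with a single spread shared by all genes. That setting differs from these data, so no call rests on it. The genes named are TRIM28, those with the largest changes in each comparison with the groups apart, the largest change in each cluster of at least 5 members, the 5 highest in control, those with the largest changes with each siRNA and those at the edges of the count minimum; others were named after their values were seen. No pair of libraries agreed within sampling noise. Words in promoters (RefSeq, GRCh38.p14) and 3′ untranslated regions were counted with Python 3.11.15. TRIM28 has no entry in the promoter table.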

Additional observations from a re-analysis of the deposited data

Results flagged for a closer look

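Listed here are TRIM28 and the ZNF genes called in opposite directions against control. In each the siRNAs also differed from each other by edgeR's quasi-likelihood test (MILIP siRNA2 against MILIP siRNA1, Benjamini-Hochberg adjusted), which tests the difference between the effects directly. By that test 17 ZNF genes were higher and 83 lower, so ZNF genes not listed here differed too. TRIM28 had a log2 fold change of -0.50 in that comparison, being called with MILIP siRNA2 and not with MILIP siRNA1 against control. The other 12 were called in opposite directions against control, which made 5.69% of the ZNF genes, against 9.93% of all genes tested. For ZNF681 with MILIP siRNA2 and ZNF358 with MILIP siRNA1 that call was lost by DESeq2, by limma, with the 2 groups fitted alone and without several single libraries. The calls against control of ZNF738, ZNF675, ZNF506, ZNF699 and ZNF792, and that of ZNF544 with MILIP siRNA1, were not followed under these alternatives. Of these, ZNF544 with MILIP siRNA1 had an edgeR adjusted p of 0.0403. ZNF699 had 0.0355 with MILIP siRNA1 and 0.0162 with MILIP siRNA2 by the same test. Higher with MILIP siRNA1 and lower with MILIP siRNA2 were ZNF100, ZNF681, ZNF253, ZNF254, ZNF738, ZNF675 and ZNF506 of cluster 5, at -2.16, -2.01, -1.94, -1.57, -1.25, -1.18 and -1.16 in that order for MILIP siRNA2 against MILIP siRNA1. ZNF607 of cluster 9 was at -1.68, ZNF358 and ZNF699 of cluster 2 at -1.39 and -0.63, and ZNF544 of cluster 16 at -1.02. ZNF792 of cluster 8 went the other way, at 1.00.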

How the results depend on the processing

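At an adjusted p below 0.01 the share of ZNF genes higher with MILIP siRNA1 was 15.2% and lower 5.21%, the share higher with MILIP siRNA2 was 7.11%, and that of cluster 15 higher with MILIP siRNA2 was 16.7% (22.2% by DESeq2). With a minimum mean FPKM of 1 the share higher with MILIP siRNA2 was 20.7%. The median log2 fold change kept its sign in every setting. With MILIP siRNA1 it was 0.0683 by limma on log2(FPKM + 1). With MILIP siRNA2 it was -0.0474 by limma, -0.0924 with median-of-ratios scaling, -0.0296 with a minimum mean FPKM of 1, -0.0848 with no filter, -0.0926 for members of at least 450 counts, -0.0873 for those without overlap and -0.064 for those with neither word in the 3′ untranslated region. Between the siRNAs it was -0.1189 by limma, -0.0986 with a minimum mean FPKM of 1, -0.2304 with no filter, -0.1929 at 450 counts and -0.2282 with neither word. Leaving out 1 library at a time gave medians of 0.0877 to 0.1428 with MILIP siRNA1, -0.1247 to -0.0881 with MILIP siRNA2 and -0.2741 to -0.1915 between the siRNAs. TRIM28 with MILIP siRNA1, which was not called, ranged from -0.1256 to 0.0114, the highest without MILIP siRNA1 replicate 2. In cluster 5, 51.7% to 62.1% were lower with MILIP siRNA2. The medians of cluster 12 with MILIP siRNA1 (-0.0984 to 0.0735) and of cluster 16 with MILIP siRNA2 (-0.0136 to 0.0798) changed sign. So did the uncalled values with MILIP siRNA1 of ZNF317 (-0.1148 to 0.0113, the highest without control replicate 2), ZNF581 (-0.0425 to 0.1369, the lowest without MILIP siRNA1 replicate 1) and ZNF787 (-0.138 to 0.0139, the highest without MILIP siRNA1 replicate 2). Of 1419 values of named genes under the alternatives, 48 lost a call and 2 gained 1. The cause of these changes was not tested.

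Same-numbered libraries showed no shared deviation (correlations -0.0508 to 0.0969), and those of unlike number ran from -0.135 to 0.139. With 3 libraries in each group this cannot show whether the numbers mark a pairing. With the replicate block 9.0% of ZNF genes were lower with MILIP siRNA1 and 39.8% lower between the siRNAs, TRIM28 was at -0.0633 and -0.5612 with MILIP siRNA1 and MILIP siRNA2. Both siRNAs were compared with the same control libraries, so counts of genes called in the same direction with both are not given. Depth limits the low members: at 3 counts the floor lay between 0.152 and 0.198 CPM. Clusters split at gaps of 0.5 Mb would number 20, and at 2 Mb 9.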
